A study of Drosophila melanogaster with 23 samples.

Results

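Genes that mark the fat body, the blood cells and the basement membrane were followed through all 23 libraries of an ovary RNA-sequencing series from Drosophila melanogaster. The set held 10 genes given by name, apolpp, Apoltp, PPO1, PPO2, NimC1, Hml, srp, vkg, Col4a1 and SPARC. The rule that lists them uses no measured value, but they were chosen with earlier results of these data known. Each symbol was matched to its FlyBase ID, and 9 of the 10 IDs were among the 17023 gene IDs of the count tables. The reference ID of PPO1 was not among them, and PPO1 is not analysed here. Levels are given as CPM, the reads counted for a gene for every 1000000 reads counted in that library.

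The fat body is the fly's counterpart of liver and adipose tissue. It makes apolpp, the precursor of the lipophorin proteins that carry lipid through the hemolymph, and Apoltp, the protein of the transfer particle that loads lipid onto lipophorin, and the ovary takes up this lipid for the egg. Hemocytes are the blood cells. Plasmatocytes engulf debris and microbes and express NimC1, a phagocytosis receptor, and Hml, a clotting protein used as their marker, while crystal cells store the prophenoloxidase PPO2, which acts in melanization. Serpent (srp) is a GATA transcription factor needed to form both the fat body and the blood cells. Collagen IV, built from the chains encoded by vkg and Col4a1, is a main component of basement membranes, the sheets of matrix that wrap every egg chamber, and SPARC is a collagen-binding matrix protein needed for its deposition. Fat body, hemocytes and follicle cells are all known to make collagen IV in the fly.

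Ovaries were dissected from flies 1 to 5 days after eclosion, and poly(A) RNA was sequenced in 11 groups of 2 libraries and in 1 library of whole ovaries. In the RNAi groups the target was, per the labels, msl3 (libraries labelled MSL3), NC2b, Set2 or S19b. The driver was nosGAL4, active in germ cells, together with UAS-Dcr2, which enhances RNAi. S19b encodes RpS19b, a variant ribosomal protein. In the bam RNAi;S19b mutant ovaries, bam RNAi under nosGAL4 was combined with a mutation of S19b, and their controls carried bam RNAi under nosGAL4 alone. The controls of every RNAi group were hsbam ovaries, which carry bam RNAi under nosGAL4 and hsbam, and for which the labels name no UAS-Dcr2. The germline gene bam takes germ cells from the stem cell state into differentiating cysts. The RNAi groups thus differ from hsbam ovaries at least in bam RNAi, in hsbam and in Dcr2 as well as in the targeted gene. The libraries labelled MSL3 and those of NC2b RNAi were set against hsbam libraries 1 and 2, which they share, and Set2 RNAi against hsbam libraries 3 and 4. S19b RNAi was set against further hsbam libraries in total (input) and in polysome RNA, in an experiment with polysome gradients. The whole ovaries carried UAS-Dcr2;nosGAL4 with no RNAi and served the study for staging. Whether paired libraries are separate dissections is not in the labels, and p-values measure the spread between these libraries, which may be technical.

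Libraries held from 2780781 to 39149303 counted reads, and the germline genes bru1, osk, otu and aub had counts in every library. Groups were compared gene by gene with edgeR's quasi-likelihood test, and a gene passed at a Benjamini-Hochberg adjusted p under 0.05 over all genes tested. The targeted gene fell in NC2b RNAi ovaries (NC2beta, log2 fold change -1.42, adjusted p = 0.0383) and in the S19b mutant (RpS19b, -3.22, adjusted p = 0.0165). Its log2 fold change was -1.53 for Set2 and -3.98 and -4.52 for RpS19b in total and polysome RNA of S19b RNAi ovaries, none of which passed the test. Against hsbam, NC2beta was also at -0.87 in the libraries labelled MSL3 and at -1.03 in Set2 RNAi, neither passing. RpS19b was at -5.76 in the libraries labelled MSL3, -5.15 in NC2b RNAi and -5.53 in Set2 RNAi, where it was not the target. Falls of NC2beta and RpS19b against hsbam were thus not particular to their own knockdown. In the libraries labelled MSL3, msl-3 had a log2 fold change of 0.65 (SE 0.28, adjusted p = 0.143), so no fall of the target was seen against hsbam. For msl-3 the value against hsbam was also 0.87 in NC2b RNAi and 0.76 in Set2 RNAi. Between the libraries labelled MSL3 and those of NC2b RNAi it was -0.22 (SE 0.28, adjusted p = 0.759). These values do not settle whether the label holds. Several libraries stood apart from their partners. Library 2 labelled MSL3 had 1226 CPM of Lsp2 and 854 CPM of Lsp1beta, larval serum protein genes of the fat body, against 40.8 and 99.5 CPM in library 1. Among the hsbam libraries, the summed level of 9 muscle genes differed within pairs, at 26555 CPM in library 1 against 8026 in library 2, and 32959 CPM in library 4 against 16439 in library 3. In the S19b RNAi experiment, 1 library in each of the 4 groups (S19b RNAi total 1 and polysome 1, hsbam total 2 and polysome 2) had counts in fewer than 9000 genes, from 7394 to 8937, whereas the other 19 libraries of the series had counts in 10383 to 12923. Ovary samples are bulk tissue, so fewer cells of a type and less RNA per cell cannot be told apart.

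The clearest result was in the S19b mutant, where the fat body and blood cell genes rose together. There vkg and Col4a1 did not pass in edgeR's quasi-likelihood test, whereas both passed in DESeq2 (adjusted p = 0.0427 for vkg and 0.0487 for Col4a1). DESeq2 called 12.1% of all genes in the mutant. In bam RNAi;S19b mutant ovaries 5 of the 9 genes passed the test, all higher (apolpp, Apoltp, PPO2, NimC1 and Hml), against 6.13% of all 9595 genes tested called, 5.52% higher and 0.604% lower. In NC2b RNAi ovaries 3 of 9 passed, against 18.6% of all genes: vkg and Col4a1 fell, where 4.53% of genes were called lower, and srp rose, where 14.1% were called higher. In the libraries labelled MSL3 2 of 9 passed, against 25.3% of all genes: vkg fell, where 8.48% of genes were called lower, and srp rose, where 16.8% were called higher. No gene at all passed between Set2 RNAi and hsbam libraries 3 and 4 (0% of 9313 genes; 21.2% had an unadjusted p under 0.05 in edgeR's quasi-likelihood test, and DESeq2 called 1352 genes). No gene passed between S19b RNAi and hsbam ovaries in total RNA (0% called, 1.75% with an unadjusted p under 0.05, 46 genes by DESeq2) or in polysome RNA (0% called, 3.3% with an unadjusted p under 0.05, 112 genes by DESeq2). None passed between the libraries labelled MSL3 and those of NC2b RNAi (0% called, 11.6% with an unadjusted p under 0.05, 233 genes by DESeq2).

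These calls rest on few libraries. The mutant calls were all lost when either bam RNAi library was left out or all 23 libraries shared a fit (0 of 9 passing), and the 5 fold changes stayed between 1.40 and 4.13 on the log2 scale whichever library was left out. The NC2b calls were all lost without NC2b library 1 or 2 or hsbam library 1 or 2. For the libraries labelled MSL3, srp lost its call without MSL3-labelled library 1 or 2, NC2b library 1 or 2 or hsbam library 1, and vkg without MSL3-labelled library 1, NC2b library 1 or 2 or hsbam library 1. The calls in NC2b RNAi and in the libraries labelled MSL3 were also lost with all 4 hsbam libraries as control or all 23 libraries in a fit. In Set2 RNAi the number passing was 9 without hsbam library 3, where 57.8% of all genes passed, and 8 without hsbam library 4, where 24.9% did.

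**Figure D1:**
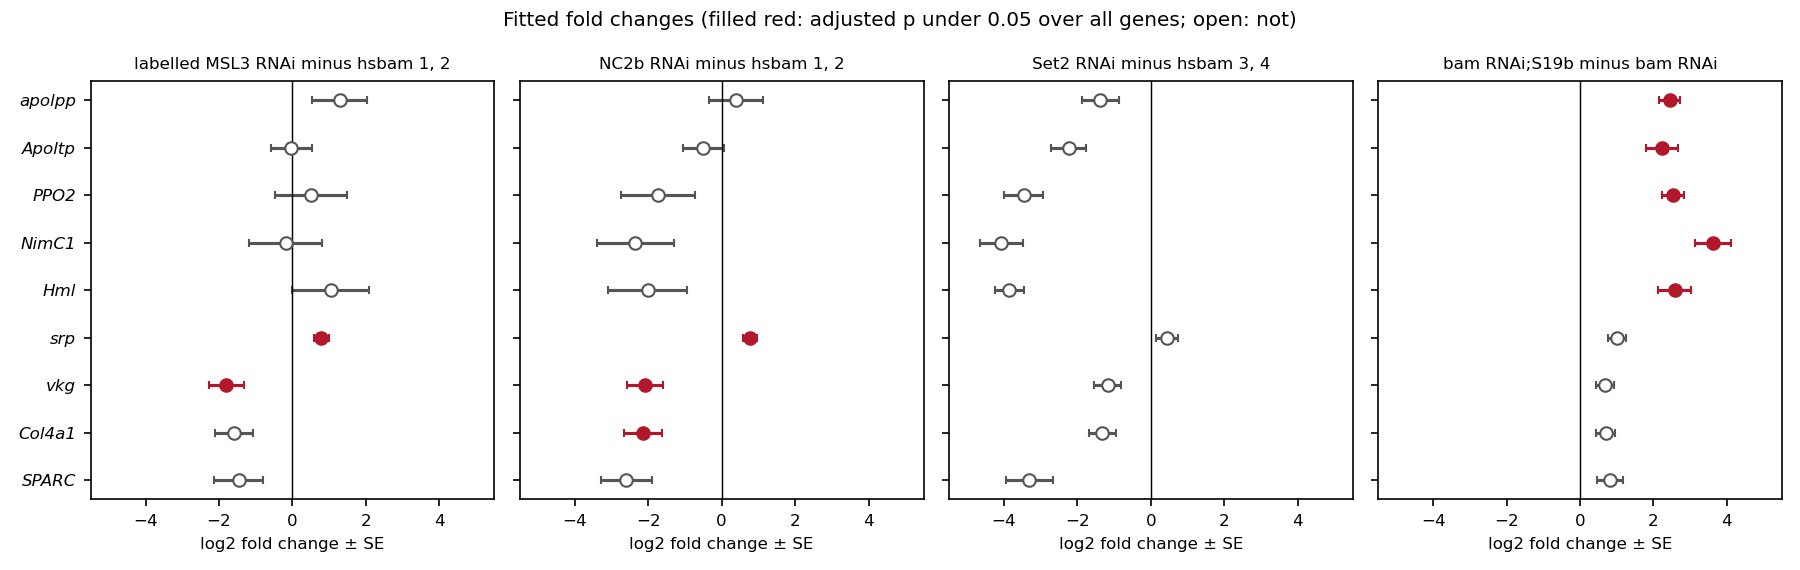
Log2 fold change (x axis) with its standard error (bars) of the 9 genes (y axis) in 4 panels of comparisons, from edgeR's quasi-likelihood fit; filled red points passed an adjusted p of 0.05 over all genes tested. In the bam RNAi;S19b mutant panel the 5 fat body and hemocyte genes apolpp, Apoltp, PPO2, NimC1 and Hml are filled and lie between 2.24 and 3.61, and in the NC2b RNAi comparison vkg and Col4a1 are filled near -2.1.

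Across all 23 libraries the 9 genes ranged widely, and the fat body and hemocyte genes ranged most. Leaving out the whole ovaries, the highest library exceeded the lowest 255-fold for Apoltp, 230-fold for PPO2, 94.1-fold for Hml, 86.9-fold for NimC1 and 80.3-fold for apolpp. The lowest values of Apoltp, PPO2 and NimC1 rest on 1, 3 and 4 reads in hsbam polysome library 2, the shallowest. Without that library, left out after seeing the data, the ranges were 94.1-fold for Hml, 73.7-fold for apolpp, 43.0-fold for Apoltp, 41.1-fold for PPO2 and 39.5-fold for NimC1. With or without it the range was 15.4-fold for SPARC, 14.0-fold for vkg and 9.13-fold for Col4a1, and srp ranged 4.77-fold with it and 4.605-fold without. Per kilobase of exon, which allows levels to be compared between genes, the median over the libraries was highest for SPARC (197 CPM per kb), followed by Col4a1 (136 CPM per kb) and vkg (76.0 CPM per kb). PPO2 (15.5), apolpp (12.5), srp (11.0), NimC1 (7.48), Hml (6.12) and Apoltp (0.877 CPM per kb) followed.

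The whole ovaries stood at the low end for the blood cell genes and near the middle for collagen IV. Their library was the lowest of 23 for PPO2, NimC1, Hml and srp, the second lowest for Apoltp and SPARC and the third lowest for apolpp. It held 5 reads of PPO2 (0.165 CPM, exact Poisson 95% interval 0.0537 to 0.386), 1 read of NimC1 (0.0331 CPM, 0.000838 to 0.184) and 33 reads of Hml (1.09 CPM, 0.751 to 1.53). Apoltp had 12 reads (0.397 CPM, 0.205 to 0.693) and apolpp 674 (22.3 CPM, 20.6 to 24.0). These intervals cover counting error only. In contrast, vkg at 720.5 CPM and Col4a1 at 1022 CPM were higher there than in 15 and 14 of the other 22 libraries. These ranks are from CPM. On CPM scaled by edgeR's TMM factors, srp in the whole ovaries (32.0) was above hsbam polysome library 1 (25.6) and bam RNAi library 2 (30.2). SPARC (66.4) was above both Set2 RNAi libraries (46.5 and 62.2), and apolpp (27.3) was above Set2 RNAi library 2 (22.4) and both hsbam polysome libraries (18.7 and 26.2). There is 1 library of whole ovaries, so these differences have no replicate check. The muscle gene sum was also lowest there, at 336 CPM against 1436 to 32959 CPM elsewhere, and the larval serum genes Lsp2 and Lsp1alpha and the hemocyte genes He, NimC2 and gcm2 were at 0. The part that such neighbouring tissue has in these levels was not tested.

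**Figure D2:**
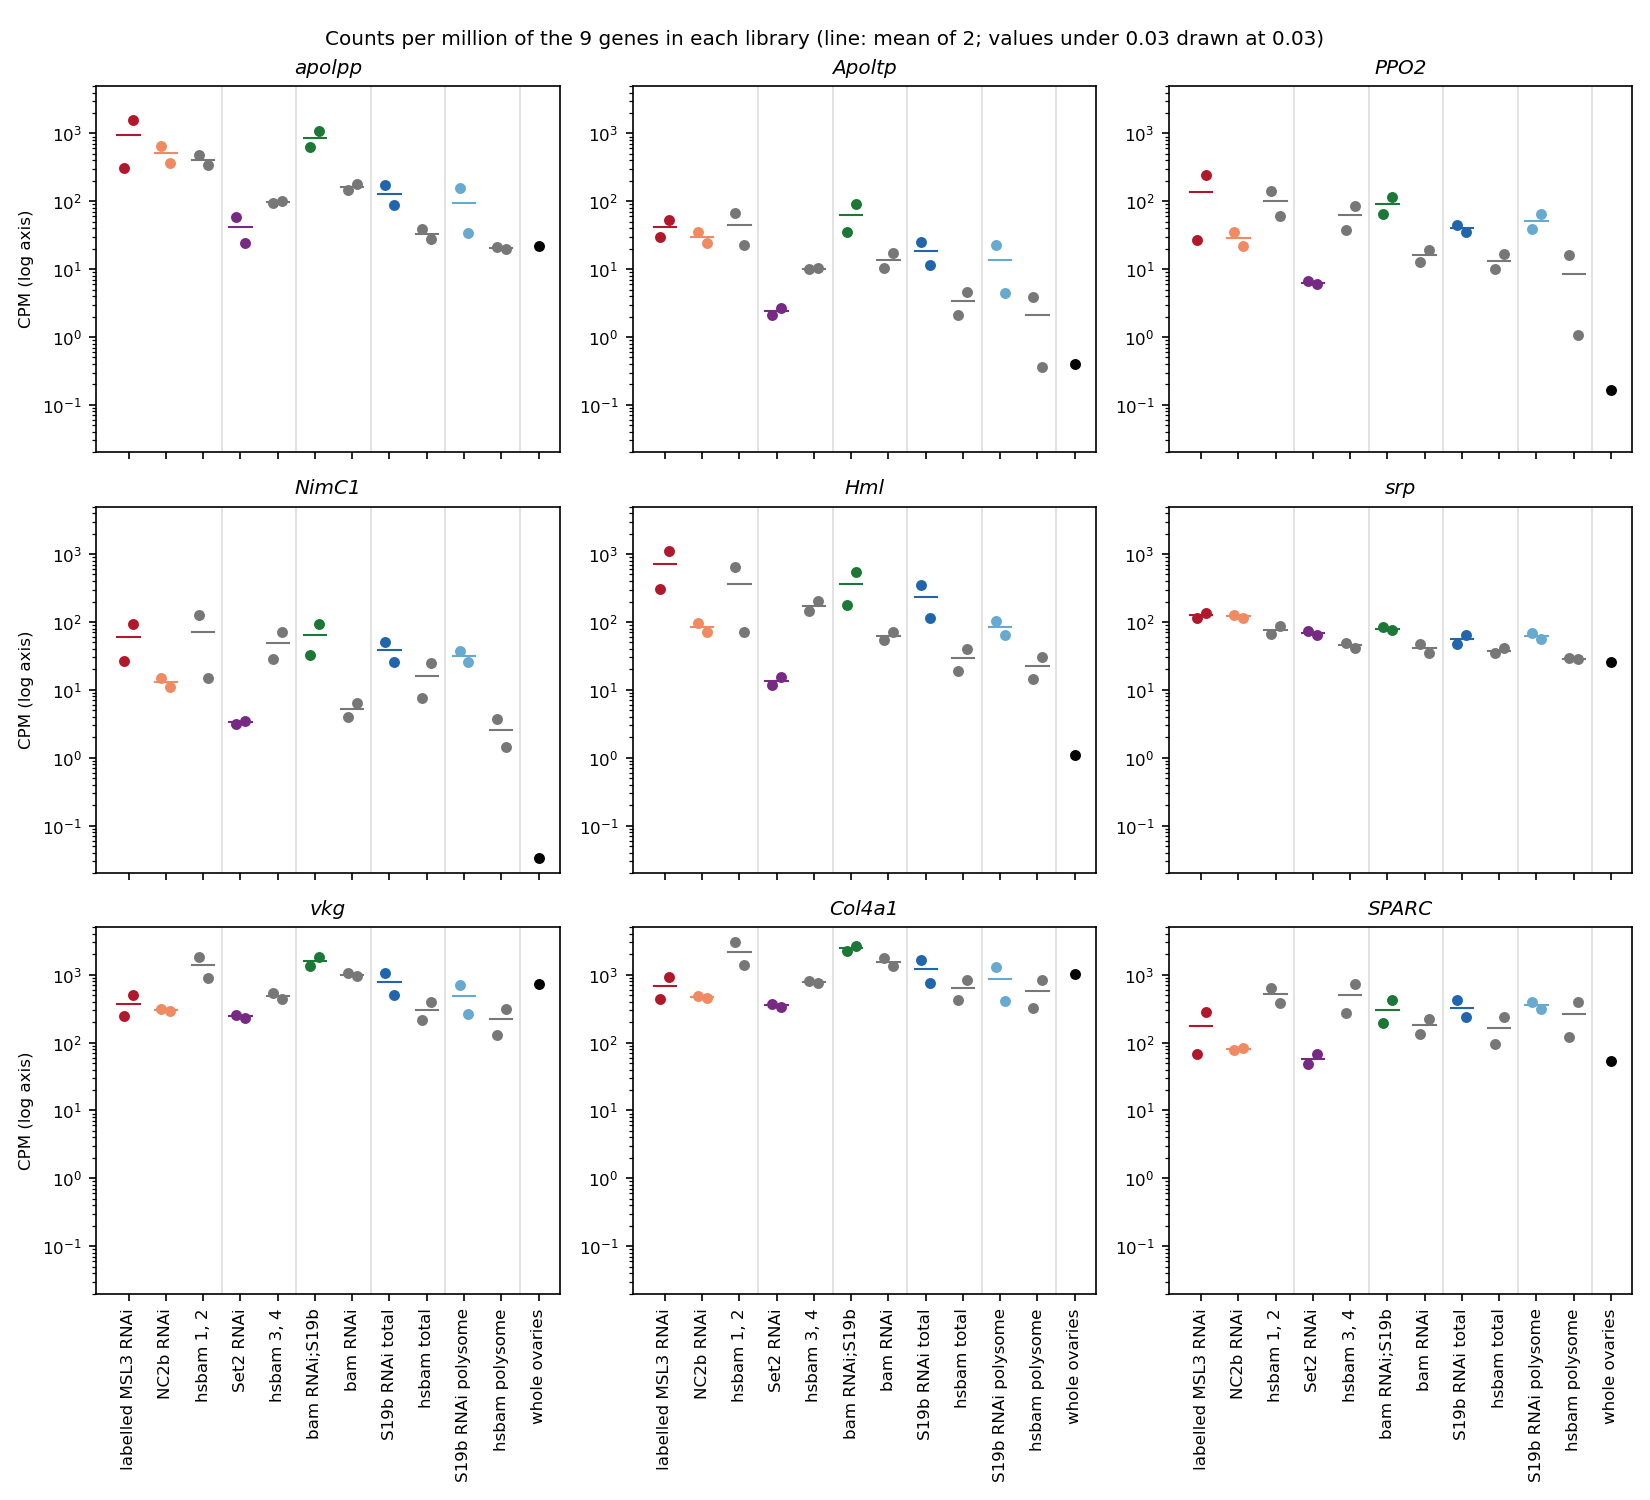
CPM of each of the 9 genes (log axis) in every library, 1 panel per gene; groups run along the x axis with each RNAi or mutant group left of its control, points are libraries and the short line is the mean of the 2. PPO2, NimC1 and Hml have their lowest point in the whole ovaries, where vkg and Col4a1 stay at 720.5 and 1022 CPM.

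The apolipoprotein gene apolpp lies at 4:1060969-1077273 on the plus strand (dm6 coordinates) and Apoltp at 2L:9634179-9656026, also plus. Of the 11766 exonic bases of apolpp, 96 overlap the antisense gene Zyx. In bam RNAi;S19b mutant ovaries apolpp had 627 and 1083 CPM, against 147 and 179 CPM in bam RNAi ovaries. Both mutant libraries lay above both controls, and the rise was 2.44 on the log2 scale (SE 0.28, adjusted p = 0.0165). Apoltp had 34.9 and 91.6 CPM in the mutant, against 10.3 and 17.2 CPM in bam RNAi ovaries, a rise of 2.24 (SE 0.43, adjusted p = 0.0326). The RNA levels of the genes for the lipid carrier and for the particle that loads it were thus higher in the same libraries.

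In S19b RNAi ovaries, in which S19b is the RNAi target and bam is not, the total RNA values ran the same way without passing. In total RNA apolpp had 171 and 87.9 CPM in S19b RNAi, against 38.6 and 27.996 CPM in hsbam total RNA (log2 fold change 1.90, SE 0.80, adjusted p = 1.00). In polysome RNA it was 156 and 34.5 CPM in S19b RNAi, against 21.6 and 19.8 CPM in hsbam (1.97, SE 0.81, adjusted p = 0.989). Apoltp had 25.0 and 11.7 CPM in S19b RNAi total RNA, against 2.13 and 4.68 CPM in hsbam. In polysome RNA Apoltp had 22.3 and 4.53 CPM in S19b RNAi, against 3.89 and 0.36 CPM in hsbam. The S19b RNAi libraries lay above both hsbam libraries in each of these 4 comparisons, as for 17.4% of all genes in total RNA and 13.9% in polysome RNA, although the S19b RNAi polysome libraries differed 4.53-fold for apolpp between themselves.

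Among groups of 2 libraries outside the S19b RNAi experiment, Set2 RNAi had the lowest mean of both apolipoprotein genes. In Set2 RNAi apolpp had 58.0 and 24.7 CPM, against 93.0 and 99.98 CPM in hsbam libraries 3 and 4 (log2 fold change -1.37, SE 0.51, adjusted p = 0.220). Apoltp had 2.13 and 2.70 CPM in Set2 RNAi, against 9.91 and 10.4 CPM in hsbam (-2.24, SE 0.48, adjusted p = 0.0876). Neither passed, and the groups did not overlap. In NC2b RNAi and the libraries labelled MSL3 the groups overlapped. The apolpp level was 309.8 and 1589 CPM in the libraries labelled MSL3, 651 and 366 CPM in NC2b RNAi and 483 and 341 CPM in hsbam libraries 1 and 2. Apoltp had 30.0 and 53.4 CPM in the libraries labelled MSL3, 35.6 and 24.2 CPM in NC2b RNAi and 66.5 and 23.1 CPM in hsbam. The direction for apolpp turned without MSL3-labelled library 2, which was 5.13-fold above library 1, to a log2 fold change of -0.33.

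In order of their means, apolpp was 949 ± 904 CPM in the libraries labelled MSL3, 855 ± 322 in the S19b mutant, 509 ± 202 in NC2b RNAi and 412 ± 100.7 in hsbam libraries 1 and 2 (SD, n = 2 each, as in the following). It was 163 ± 23.0 CPM in bam RNAi and 129.6 ± 59.0 in S19b RNAi total RNA, then 96.5 ± 4.92 in hsbam libraries 3 and 4 and 95.4 ± 86.1 in S19b RNAi polysome RNA. Set2 RNAi (41.3 ± 23.6), hsbam total RNA (33.3 ± 7.50), the whole ovaries (22.3) and hsbam polysome RNA (20.7 ± 1.26) closed the order. Of the 11 steps between neighbours in this order, 3 separated libraries without overlap.

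The blood cell genes showed the largest rise in the S19b mutant. NimC1 (2L:13973158-13976769, minus strand) had 33.0 and 93.6 CPM in bam RNAi;S19b mutant ovaries, against 3.98 and 6.49 CPM in bam RNAi ovaries. Its log2 fold change of 3.61 (SE 0.49, adjusted p = 0.0177) was the highest of the 9 genes. Hml (3L:13846054-13860001, plus strand) had 179 and 546 CPM in the mutant, against 53.4 and 71.5 CPM in bam RNAi ovaries, a rise of 2.57 (SE 0.46, adjusted p = 0.0269). PPO2 (2R:9042261-9044709, minus strand) had 64.9 and 116 CPM in the mutant, against 13.0 and 19.1 CPM in bam RNAi ovaries, a rise of 2.54 (SE 0.30, adjusted p = 0.0165). Plasmatocyte and crystal cell genes were thus above their controls in both mutant libraries, and mutant library 2 was the higher of the pair for each, 3.05-fold for Hml, 2.83-fold for NimC1 and 1.79-fold for PPO2.

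In S19b RNAi total RNA, Hml had 349 and 114 CPM, against 18.8 and 40.5 CPM in hsbam total RNA. Its log2 fold change of 2.87 (SE 0.84) had the lowest unadjusted p of the 9 genes there, 0.00617, with an adjusted p of 1.00 (higher in 2 of 2 libraries). NimC1 had 50.5 and 25.6 CPM in S19b RNAi, against 7.57 and 24.6 CPM in hsbam total RNA, and PPO2 had 44.1 and 35.4 CPM in S19b RNAi, against 10.0 and 16.5 CPM in hsbam. In polysome RNA, Hml had 105 and 64.4 CPM in S19b RNAi, against 14.6 and 30.9 CPM in hsbam. NimC1 had 37.7 and 25.7 CPM in S19b RNAi polysome RNA, against 3.75 and 1.44 CPM in hsbam, and its log2 fold change of 3.46 (SE 1.28, adjusted p = 0.989) was the highest of the 9. PPO2 had 38.8 and 65.2 CPM in S19b RNAi polysome RNA, against 16.0 and 1.08 CPM in hsbam, where library 2 is the shallowest of the series.

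In total RNA 8 of the 9 genes had both S19b RNAi libraries above both hsbam libraries, where 17.4% of all genes tested did, and in polysome RNA 6 of 9 did, where 13.9% of genes did. These counts are from CPM. On CPM scaled by edgeR's TMM factors, NimC1 and SPARC overlapped in total RNA. NimC1 was at 23.7 in S19b RNAi library 2 against 26.7 in hsbam library 2, and SPARC at 219 against 256. The libraries with few and with many detected genes were also compared apart. In total RNA all 9 genes were higher in S19b RNAi than in hsbam within each kind of library, by 1.15-fold to 8.61-fold among the libraries with few genes and by 1.84-fold to 6.07-fold among the others. Of all genes with a value, 35.9% were higher in both. In polysome RNA the ratio of S19b RNAi to hsbam ran from 1.00-fold to 62.1-fold among the libraries with few genes and from 1.16-fold to 6.86-fold among the others, and 27% of all genes were higher in both. The 1.00-fold value is that of SPARC, with 402 against 401 CPM, which is no difference. With TMM scaling SPARC was lower in that pair, at 356 in S19b RNAi against 530 in hsbam. The 62.1-fold value is that of Apoltp, which had 1 read in hsbam polysome library 2, and the other pair of libraries gave 1.16-fold for it. With a term for the libraries with few genes detected, a fit chosen after seeing the data, Hml in total RNA had a log2 fold change of 2.77 (SE 0.53, adjusted p = 0.0899), and again none of the 9 genes passed in either kind of RNA.

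In Set2 RNAi ovaries the blood cell genes were low in both libraries. Hml had 11.7 and 15.2 CPM in Set2 RNAi, against 145 and 200.4 CPM in hsbam libraries 3 and 4 (log2 fold change -3.86, SE 0.39, adjusted p = 0.0565). NimC1 had 3.163 and 3.47 CPM in Set2 RNAi, against 28.1 and 70.9 CPM in hsbam (-4.07, SE 0.58, adjusted p = 0.0595). PPO2 had 6.65 and 6.03 CPM in Set2 RNAi, against 37.9 and 86.2 CPM in hsbam (-3.46, SE 0.53, adjusted p = 0.0595). These were the largest differences of the 9 genes in that comparison, and none passed edgeR's quasi-likelihood test. All 3 passed in DESeq2, where 14.5% of all genes did, and without the filter on low counts, where 6.5% did. In Set2 RNAi, 8 of the 9 genes had both libraries below both hsbam libraries, where 25.5% of all genes did, and srp had both above, where 39% did.

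Neither the libraries labelled MSL3 nor those of NC2b RNAi gave a call for the blood cell genes. Hml had 309 and 1105 CPM in the libraries labelled MSL3, 97.3 and 71.9 CPM in NC2b RNAi and 650.1 and 70.2 CPM in hsbam libraries 1 and 2. The 9.26-fold gap between the hsbam libraries compares with a median gap of 1.29-fold over all genes. Without hsbam library 1 the log2 fold change of Hml in NC2b RNAi was 0.41, where the full fit gave -2.01, and in the libraries labelled MSL3 it was 3.45 and passed (adjusted p = 0.0493). NimC1 had 26.2 and 92.0 CPM in the libraries labelled MSL3, 14.9 and 11.0 CPM in NC2b RNAi and 125 and 15.1 CPM in hsbam. PPO2 had 26.9 and 248 CPM in the libraries labelled MSL3, 35.8 and 21.9 CPM in NC2b RNAi and 144 and 61.2 CPM in hsbam. Between the libraries labelled MSL3 and those of NC2b RNAi, Hml (log2 fold change 3.05, SE 1.12, adjusted p = 0.417) and NimC1 (2.17, SE 1.05, adjusted p = 0.458) were higher in both libraries labelled MSL3 without passing, as were 23.9% of all genes.

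The order of group means for Hml began with 707 ± 563 CPM in the libraries labelled MSL3, 363 ± 259.9 in the S19b mutant, 360.1 ± 410.0 in hsbam libraries 1 and 2, 232 ± 166 in S19b RNAi total RNA and 173 ± 39.3 in hsbam libraries 3 and 4. It went on with 84.6 ± 28.7 CPM in S19b RNAi polysome RNA, 84.6 ± 17.9 in NC2b RNAi, 62.4 ± 12.8 in bam RNAi, 29.7 ± 15.4 in hsbam total RNA, 22.8 ± 11.5 in hsbam polysome RNA and 13.5 ± 2.44 in Set2 RNAi (SD, n = 2 each). Of its 11 steps between neighbours, 4 separated the libraries, and the top 5 groups overlapped from each to the next. Of the same 11 steps, 4 separated the libraries for NimC1, 3 for srp, 2 each for PPO2, vkg and SPARC and 1 each for Apoltp and Col4a1, so most neighbouring groups did not differ beyond their spread. The ratio of Hml to NimC1 ran from 1.65 in hsbam total library 2 to 21.5 in hsbam polysome library 2 over the 22 libraries outside the whole ovaries. The highest value rests on 4 reads of NimC1, and without that library the highest was 13.4 in bam RNAi library 1.

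The GATA factor gene srp (3R:15986152-16004085, plus strand) varied least of the 9. Of its 5831 exonic bases, 938 overlap lncRNA:CR44133 on the same strand, so its counts are uncertain to that extent. It had 114 and 135 CPM in the libraries labelled MSL3 and 128 and 114.6 CPM in NC2b RNAi, against 65.4 and 87.4 CPM in hsbam libraries 1 and 2. These 4 libraries lay above both controls, as did 29.3% of all genes in the libraries labelled MSL3 and 31.9% in NC2b RNAi. The rise was 0.79 on the log2 scale in the libraries labelled MSL3 (SE 0.20, adjusted p = 0.0377) and 0.77 in NC2b RNAi (SE 0.20, adjusted p = 0.0495). The 2 comparisons share their hsbam libraries. In the S19b mutant srp had 84.1 and 74.8 CPM, against 46.9 and 34.4 CPM in bam RNAi ovaries (log2 fold change 1.02, SE 0.25, adjusted p = 0.0583), which missed the threshold. In Set2 RNAi it had 74.3 and 64.3 CPM, against 49.4 and 41.8 CPM in hsbam libraries 3 and 4 (0.44, SE 0.29, adjusted p = 0.457). In total RNA it had 47.6 and 64.9 CPM in S19b RNAi, against 34.3 and 41.4 CPM in hsbam, and in polysome RNA 68.8 and 55.2 CPM in S19b RNAi, against 29.4 and 28.4 CPM in hsbam. Each RNAi or mutant pair of libraries was above its own controls, but srp passed only in the 2 comparisons that share hsbam libraries. Of all genes, 26.6% were above in this way in the S19b mutant and 39% in Set2 RNAi. In S19b RNAi the share was 17.4% in total RNA and 13.9% in polysome RNA. Group means ran from 125 ± 15.5 CPM in the libraries labelled MSL3 to 28.9 ± 0.718 CPM in hsbam polysome RNA (SD, n = 2 each).

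The proportion of the collagen IV genes varied less than either gene, and it was lower in some groups. They lie side by side on chromosome arm 2L, vkg at 2L:5012144-5028191 on the minus strand and Col4a1 at 2L:5029609-5037279 on the plus strand, pointing away from each other across a gap of 1417 bases. Over all 23 libraries the ratio of vkg to Col4a1 had a median of 0.643, from 0.374 in hsbam polysome library 2 to 0.707 in bam RNAi library 2, a 1.89-fold range, while each gene alone ranged 9.13-fold or more. The ratio was lowest in hsbam total RNA (0.518 and 0.463) and hsbam polysome RNA (0.402 and 0.374). In every other library it was 0.534 or higher. For S19b RNAi it was 0.643 and 0.644 in total RNA and 0.534 and 0.653 in polysome RNA. The libraries share their scaling to the total count, which bears equally on both genes. In contrast, the ratio of Col4a1 to Hml ran from 0.848 in library 2 labelled MSL3 to 936 in the whole ovaries, with a median of 12.5.

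**Figure D3:**
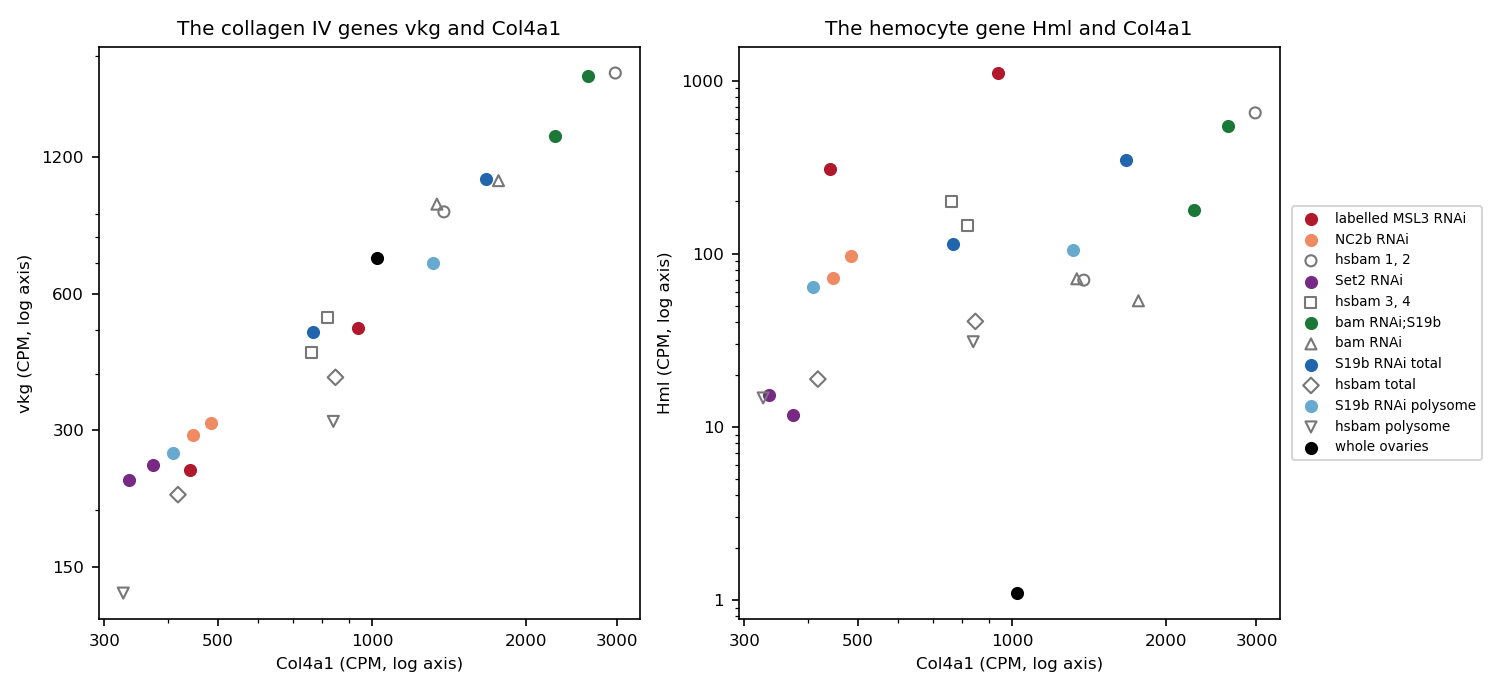
CPM of vkg (left) and Hml (right) on the y axis against CPM of Col4a1 on the x axis, log axes, 1 point per library coloured by group. The points for vkg follow Col4a1 closely, with ratios from 0.374 to 0.707, while those for Hml scatter and the whole ovaries lie far below the rest at 1.09 CPM of Hml.

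Collagen IV fell in NC2b RNAi ovaries. There vkg had 311 and 294 CPM in NC2b RNAi, against 1839 and 909 CPM in hsbam libraries 1 and 2 (log2 fold change -2.09, SE 0.49, adjusted p = 0.0379). Col4a1 had 485 and 447 CPM in NC2b RNAi, against 2983 and 1381 CPM in hsbam (-2.14, SE 0.52, adjusted p = 0.0418). In the libraries labelled MSL3 vkg had 246 and 504 CPM, against the same hsbam values, and fell by 1.80 on the log2 scale (SE 0.48, adjusted p = 0.0433). Col4a1 had 441 and 937 CPM there, which missed the threshold (-1.59, SE 0.51, adjusted p = 0.0708). The NC2b RNAi libraries and those labelled MSL3 lay below both hsbam libraries for both genes, and 40.6% of all genes in NC2b RNAi and 34.3% in the libraries labelled MSL3 did so too.

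In Set2 RNAi, vkg had 252 and 233 CPM, against 532 and 444 CPM in hsbam libraries 3 and 4 (log2 fold change -1.17, SE 0.37, adjusted p = 0.168). Col4a1 had 374 and 336 CPM in Set2 RNAi, against 817 and 761 CPM in hsbam (-1.32, SE 0.37, adjusted p = 0.141). Neither passed. The 2 hsbam pairs differed from each other as well, at 1374 ± 658 CPM of vkg in libraries 1 and 2 and 488 ± 61.8 CPM in libraries 3 and 4 (SD, n = 2 each). With all 4 hsbam libraries as the control, neither vkg nor Col4a1 passed in Set2 RNAi, in NC2b RNAi or in the libraries labelled MSL3.

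The S19b mutant had the highest mean of both collagen IV genes of all groups, above controls that were high already. There vkg had 1336 and 1814 CPM in the mutant, against 1065 and 945 CPM in bam RNAi ovaries (log2 fold change 0.69, SE 0.24, adjusted p = 0.148). Col4a1 had 2271 and 2639 CPM in the mutant, against 1765 and 1338 CPM in bam RNAi ovaries (0.70, SE 0.26, adjusted p = 0.168). The groups did not overlap, 26.6% of all genes were higher in the same way, and neither gene passed. In S19b RNAi total RNA, vkg had 1073 and 494 CPM, against 217 and 393 CPM in hsbam total RNA (1.27, SE 0.77), and Col4a1 had 1668 and 767 CPM, against 418 and 848 CPM in hsbam (0.84, SE 0.83). In polysome RNA vkg had 703 and 267 CPM in S19b RNAi, against 131 and 314 CPM in hsbam, and Col4a1 had 1316 and 409 CPM, against 327 and 840.1 CPM in hsbam. The groups overlapped for both genes in polysome RNA and for Col4a1 in total RNA.

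SPARC (3R:26869238-26871995, minus strand) differed from the collagen chains in some groups. In NC2b RNAi it had 77.6 and 82.2 CPM, against 646 and 387 CPM in hsbam libraries 1 and 2 (log2 fold change -2.60, SE 0.69, adjusted p = 0.0522), which narrowly missed the threshold. In the libraries labelled MSL3 it had 67.4 and 286 CPM (-1.47, SE 0.67, adjusted p = 0.161), and it passed without MSL3-labelled library 2 (-2.86, adjusted p = 0.0144). In Set2 RNAi it had 48.1 and 68.4 CPM, against 270.3 and 742 CPM in hsbam libraries 3 and 4 (-3.31, SE 0.65, adjusted p = 0.0811). In the S19b mutant it had 191 and 420.1 CPM, against 135 and 223 CPM in bam RNAi ovaries, and the groups overlapped (0.82, SE 0.36, adjusted p = 0.227). In total RNA it had 419.7 and 236.25 CPM in S19b RNAi, against 96.2 and 236.13 CPM in hsbam, so the groups were set apart by less than counting error. In polysome RNA it had 402 and 311 CPM in S19b RNAi, against 122 and 401 CPM in hsbam. SPARC was highest in hsbam library 4 (742 CPM), where vkg was at 444 CPM, and in the whole ovaries it was at 54.2 CPM while vkg was at 720.5 CPM.

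Other genes of the same tissues were read from lists of their known members. In the S19b mutant, hemocyte genes rose in 4 of the 10 tested (Sr-CI, log2 fold change 2.16; eater, 2.68; Pxn, 2.32; crq, 1.08), with a list median of 1.39 against 0.00 for all genes. Of these, eater and Sr-CI are phagocytosis receptors, crq is a receptor for dying cells, and Pxn is a peroxidase of the matrix. Fat body genes rose in 2 of 8 tested (Lsd-1, a lipid droplet coat protein, 1.92; AkhR, the adipokinetic hormone receptor, 4.08), with a list median of 3.36. Matrix genes rose in 5 of 14 (wb, a laminin alpha chain, 1.42; Mp, a collagen, 1.6; Ppn, papilin, 2.32; Pxn; Mmp1, a matrix protease, 1.05). None of the 4 collagen modification genes and none of the 7 matrix receptor genes tested passed. Over all genes tested in the mutant, 5.52% were called higher and 6.13% in either direction, so none passing in lists of 4 and 7 lies near that share. Among genes of lipoprotein assembly and uptake, the receptors LpR1 (1.39) and LpR2 (1.36) rose and the other 6 did not pass. Of 11 melanization genes the inhibitors Spn27A (1.79) and Spn77Ba (1.54) rose and ple, tyrosine hydroxylase, fell by 1.99 on the log2 scale.

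The same mutant libraries differed in markers of other tissues. All 9 muscle genes tested rose (median 1.59), where 5.52% of all genes were called higher. Their summed level was 7642 and 13462 CPM in the mutant, against 3365 and 3311 CPM in bam RNAi ovaries. On the follicle cell list Yp3 (1.90), Yp2 (1.89) and peb (1.59) rose too, as did the tracheal gene Gasp (2.24). The yolk protein genes Yp2 and Yp3 are not particular to follicle cells. Of the germline genes osk rose by 4.19, the smallest p of all list genes in edgeR's test (adjusted p = 0.00437). The germline genes aub (-0.94), bru1 (-0.25) and otu (-0.24) were lower without passing. Summed germline markers were 731 to 841 CPM in the mutant, against 905 to 1184 CPM in bam RNAi ovaries. The summed hemocyte markers were 1260 and 2163 CPM in the mutant, against 619 and 720.4 CPM in bam RNAi ovaries, and the summed fat body markers 593 and 992 CPM in the mutant, against 481 and 661 CPM in bam RNAi ovaries. Mutant library 2, the higher of the pair for apolpp, Apoltp, PPO2, NimC1, Hml, vkg, Col4a1 and SPARC, was also the higher in muscle, hemocyte and fat body markers. The part that such tissue has in the rise of the fat body and blood cell genes was not tested.

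In NC2b RNAi the matrix genes Loxl1, a lysyl oxidase (log2 fold change -2.88), and dally, a glypican (-1.48), fell, 2 of 14 tested, where 4.53% of all genes were called lower, with a list median of -1.72 against -0.09 for all genes. Of the laminin chains, LanB1 was at -2.01, LanB2 at -1.77 and LanA at -1.29, none passing. Plod, the collagen lysyl hydroxylase, fell by 1.11 on the log2 scale in NC2b RNAi and by 1.73 in the libraries labelled MSL3, where PH4alphaEFB, a prolyl hydroxylase of collagen, fell by 1.29 and Crag, needed for basement membrane protein sorting, rose by 0.76. In the libraries labelled MSL3 Loxl1 was the only 1 of 14 matrix genes to pass (-2.82), where 8.48% of all genes were called lower, with a list median of -0.70. Another GATA factor gene, GATAd, rose alongside srp in both, by 1.54 in the libraries labelled MSL3 and by 1.43 in NC2b RNAi. The lipoprotein receptor LpR2 rose in both (1.52 and 1.51, given in the same order), as did yl, the yolk receptor of the oocyte (3.78 and 3.94). No fat body marker (0 of 10), hemocyte marker (0 of 11) or muscle gene (0 of 9) passed in either. Over all genes, 25.3% passed in the libraries labelled MSL3 and 18.6% in NC2b RNAi.

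The summed muscle level was 4657 and 13728 CPM in the libraries labelled MSL3 and 3947 and 4636 CPM in NC2b RNAi, against 26555 and 8026 CPM in hsbam libraries 1 and 2. The summed germline markers ran the other way, summing to 3924 and 2258 CPM for libraries labelled MSL3 and 3601 and 3494 CPM in NC2b RNAi, against 582 and 572 CPM in hsbam. This sum holds bru1, osk, otu and aub only, as the listed vas and nos were not matched. In NC2b RNAi osk (4.82), otu (3.29) and bru1 (2.77) rose, whereas aub was lower in both libraries (-0.73) without passing. Muscle genes summed to 1536 and 1436 CPM in Set2 RNAi, against 16439 and 32959 CPM in hsbam libraries 3 and 4. All 9 muscle genes had negative fold changes there (median -4.20, 0 passing), and the hemocyte list had a median of -3.0 (0 of 10 passing), the fat body list -2.71 (0 of 9) and the matrix list -1.71 (0 of 14), against 0.04 for all genes. Germline markers summed to 4651 and 3917 CPM in Set2 RNAi, against 2371 and 255 CPM in hsbam. Markers of escort, cap and terminal filament cells, somatic cells of the germarium, had list medians of -1.94 in the libraries labelled MSL3 and -1.75 in Set2 RNAi, where 0 of 5 passed, and all 6 had negative fold changes in NC2b RNAi. Of these markers Wnt4 fell in the libraries labelled MSL3 (-2.80) and in NC2b RNAi (-3.29), where en also fell and had no reads in either library. Their sum was 606 to 1489 CPM in the libraries labelled MSL3 and 540 to 552 CPM in NC2b RNAi, against 1200 to 1291 CPM in hsbam libraries 1 and 2, and 443 to 582 CPM in Set2 RNAi, against 885 to 1011 CPM in hsbam libraries 3 and 4. Among follicle cell genes, tj (-2.45) and Cad99C (-1.67) fell in the libraries labelled MSL3 and slbo rose in NC2b RNAi (2.72). The part that muscle, germline, escort and follicle cell content has in the lower collagen, SPARC and blood cell levels of these libraries was not tested.

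In S19b RNAi total RNA no gene of any list passed. The fat body list had a median log2 fold change of 2.498 and the hemocyte list 1.03, against 0.04 for all genes. The GATA and blood cell regulators had a median of 1.86 over 4 genes, the oenocyte gene Cyp4g1 was at 1.58, both tracheal genes tested had positive fold changes without passing, and the muscle list had a median of 0.24. Summed fat body markers were 555 and 605 CPM in S19b RNAi total RNA, against 599 and 689 CPM in hsbam, so the sum was not higher in S19b RNAi where the median over genes was. The part of such tissue in these values was not tested. Summed hemocyte markers were 2213 and 1138 CPM in S19b RNAi total RNA, against 759 and 1165 CPM in hsbam. Summed muscle levels were 24341 and 7643 CPM in S19b RNAi total RNA, against 5136 and 20937 CPM in hsbam, and the libraries with few detected genes were the high ones in both.

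**Figure D4:**
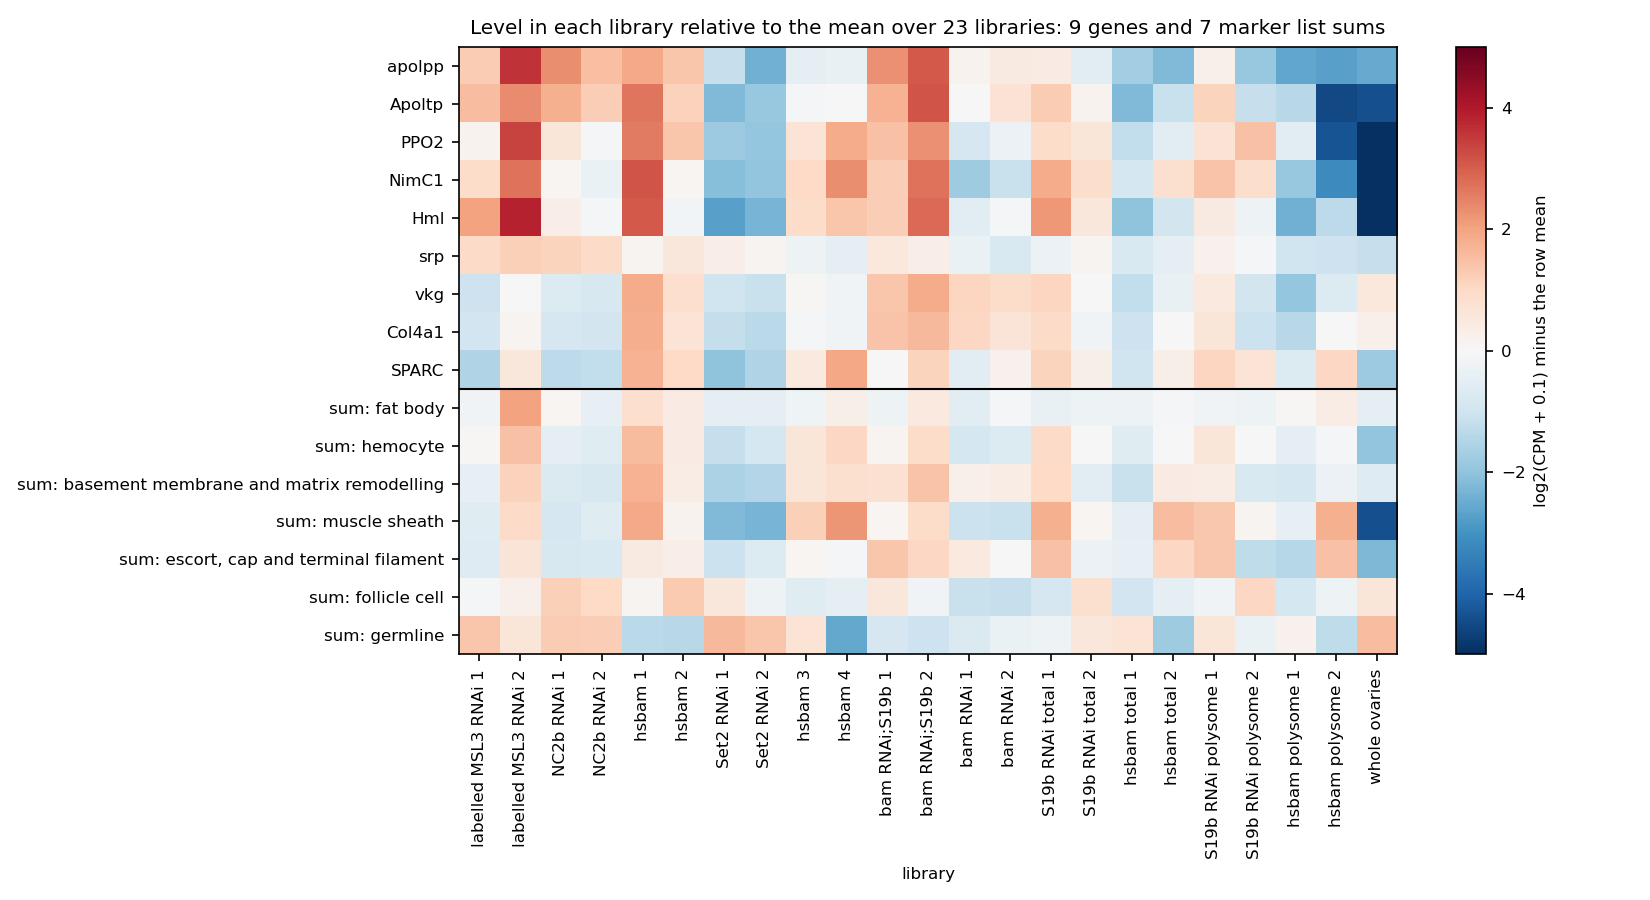
Level of the 9 genes and of 7 summed marker lists (rows) in the 23 libraries (columns), as log2(CPM + 0.1) minus the row mean, with colours clipped at 5 in either direction. The Hml, NimC1 and PPO2 rows are darkest below their means in the whole ovaries and low in Set2 RNAi, and the muscle row is low in the same libraries.

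Polysome RNA was set against total RNA within each genotype. In hsbam ovaries none of the 9 genes passed, nor did any gene of the 9688 tested (0%; 0.434% had an unadjusted p under 0.05, and DESeq2 called 0). NimC1 had 3.75 and 1.44 CPM in hsbam polysome RNA, against 7.57 and 24.6 CPM in hsbam total RNA (log2 fold change -2.72, SE 1.24, adjusted p = 1.00). Both polysome libraries lay below both total libraries for NimC1, apolpp and srp, as for 10% of all genes. SPARC had a log2 fold change of 0.83 (SE 0.77), which turned to -0.74 without polysome library 2. In S19b RNAi ovaries none passed either (0% called, 0.0516% with an unadjusted p under 0.05, 0 by DESeq2). Hml had 105 and 64.4 CPM in S19b RNAi polysome RNA, against 349 and 114 CPM in total RNA (-1.58, SE 0.80, adjusted p = 1.00), the only one of the 9 genes with both polysome libraries below both total libraries, as for 8.74% of all genes. The test of whether the change from total to polysome RNA differed between S19b RNAi and hsbam called no gene (0%, 0.0516% with an unadjusted p under 0.05, 0 by DESeq2). Its largest value among the 9 genes was that of NimC1, 2.34 (SE 1.66, adjusted p = 1.00), followed in size by Hml at -1.32 (SE 1.12).

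The genes whose patterns over the 23 libraries were most like each of the 9 were found by the root mean square difference of centred log2 CPM, among 8934 genes with at least 10 counts in at least 12 libraries. All libraries share this measure's scaling, and the values are a description. The nearest gene to vkg was Col4a1 and the nearest to Col4a1 was vkg, at 0.24, followed by LanB2, the laminin gamma chain, at 0.43 and 0.31. The next were LanB1, the laminin beta chain, for vkg (0.47) and elB for Col4a1 (0.38). SPARC was nearest to Mgat2 (0.39), Timp, an inhibitor of matrix proteases (0.39), and Mipp1 (0.41), and Col4a1 ranked 443 from it. Hml was nearest to eater (0.64), Glt (0.76) and NimC1 (0.88). NimC1 was nearest to CG4950 (0.58), PPO2 (0.72) and CG5080 (0.73). PPO2 was nearest to an ID of the tables with no symbol in the reference (FBgn0261362, 0.56), which could not be assigned to PPO1 or to any other gene, followed by NimC1 (0.72) and CG2736 (0.78). The nearest gene to apolpp was Apoltp (0.85), then Cyp4d8 (1.19) and tnc (1.20), and Apoltp was nearest to tnc (0.82), Alk (0.84) and apolpp (0.85). The GATA factor srp was nearest to Exn (0.40), CG31195 (0.41) and spin (0.43), and the nearest other of the 9 genes, Col4a1, ranked 5130 from it. The spread of a gene about its own mean, for scale, was from 0.69 for srp to 2.22 for NimC1.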

How the data were processed

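The series holds raw whole-number counts of reads per gene, 1 deposited table per library, and the authors did not normalise these counts, as the values show. Per the submitters' processing notes, HISAT2 2.1.0, featureCounts 1.6.0.4, edgeR 3.16.5 and the dm6 genome were used; no annotation or strand setting is named in the sources used here, though the labels' protocols name a directional kit. In total 17023 gene IDs were read in each of 23 libraries, of which 376 had no symbol in the reference (BDGP 6.54, Ensembl release 115, which also gave positions and exonic lengths). A further 8 small tables were not used here. CPM were counts over the library total, and 95% intervals for single libraries are exact Poisson.

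Comparisons used edgeR 4.0.16 in R 4.3.3 (TMM, filterByExpr with a minimum count of 10 and a minimum total of 15, quasi-likelihood F test), with p-values adjusted by Benjamini-Hochberg across every gene in a comparison and a threshold of 0.05. A standard error is the fold change over the root of F. The libraries labelled MSL3, NC2b RNAi and hsbam 1 and 2 shared a fit, as did the 8 libraries of the S19b RNAi experiment. The code was tested on simulated data. Alternatives were DESeq2 1.42.0 (size factors and test), library totals alone, no filter, a replicate block, all 4 hsbam libraries as control, all 23 libraries in a fit, TMM-scaled CPM and leaving out each library. No 2 libraries of a group agreed within sampling noise. The named genes are the 9 members, the targeted genes, up to 3 passing genes of each list and marker genes at 0, and the 3 nearest genes by pattern; beyond that rule, further list genes were named after their values were seen. The members and lists were chosen with earlier results of these data known.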

Additional observations from a re-analysis of the deposited data

How the results depend on the processing

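The number of the 9 genes passing changed with the setting in most comparisons. For the libraries labelled MSL3 (2 passing) it was 1 with library totals alone, 4 in DESeq2's test, 0 with all 4 hsbam libraries as control, 0 with all 23 libraries in a fit, and 0 to 3 with a library left out. For NC2b RNAi (3 passing) it was 0 with all 4 hsbam libraries, 0 with all 23 libraries, and 0 to 4 with a library left out. For Set2 RNAi (0 passing) it was 5 without the filter on low counts, 7 in DESeq2's test, 4 with all 4 hsbam libraries, and 0 to 9 with a library left out. For the S19b mutant (5 passing) it was 8 in DESeq2's test, 0 with all 23 libraries, and 0 to 7 with a library left out. For S19b RNAi total RNA (0 passing) it was 1 without the filter (Hml, 2.93, adjusted p = 0.0474), and for polysome RNA (0 passing) it was 0 to 1 with a library left out (PPO2 without hsbam polysome library 1, 5.00, adjusted p = 0.0413). Over all genes, the number called ranged as widely (the highest values outside leaving out a library, other than for the mutant, are DESeq2's): 2573 for the libraries labelled MSL3 (975 to 2812 with a library left out, 0 to 3370 otherwise), 1895 for NC2b RNAi (0 to 2857, 0 to 3342), 0 for Set2 RNAi (12 to 5661, 0 to 1352) and 588 for the mutant (1 to 1314, 0 to 2150). In DESeq2's test the share of all genes called was 33.1% for the libraries labelled MSL3 and 33.5% for NC2b RNAi. It was 14.5% for Set2 RNAi and 12.1% for the mutant. SPARC passed as well in NC2b RNAi there. Without the filter the share was 6.5% for Set2 RNAi and 10.3% for the mutant, where srp and SPARC passed as well. With all 4 hsbam libraries it was 6.4% for Set2 RNAi, 0.169% for the libraries labelled MSL3 and 0.0282% for NC2b RNAi. The cause of these shifts was not tested.

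Replicate numbers are shared between groups, and no label says that they mark a shared day or fly stock. The deviations of same-numbered libraries correlated at 0.21 in the mutant experiment, at 0.10, -0.07 and 0.13 in the experiment with NC2b RNAi, and between genotypes at -0.18 to -0.29 in the S19b RNAi experiment. Same-numbered total and polysome libraries of a genotype correlated at 0.49 in S19b RNAi and 0.30 in hsbam. With 2 numbers a group and no label on them, pairing was not established. With the replicate block, 0 of the 9 genes passed for the libraries labelled MSL3 (18.9% of all genes called) and 0 for NC2b RNAi (12.4%). For the S19b mutant 9 passed, vkg (adjusted p = 0.0164) and Col4a1 (0.0129) included, where 22.4% of all genes were called. Over all genes the mutant had 2150 calls against 588. The Set2 and hsbam libraries share no numbers, so no block could be fitted there. In the S19b RNAi experiment the block left the count at 0, as did the term for the libraries with few genes detected.

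Fold changes on the log2 scale turned direction for Apoltp in the libraries labelled MSL3, to 0.013 without the filter, 0.13 with the replicate block and 0.61 with all 4 hsbam libraries, for NimC1 there to 0.17 with the block, and for Apoltp in NC2b RNAi to 0.18 with all 4 hsbam libraries. With a library left out, values in the libraries labelled MSL3 ran from -0.33 to 2.05 for apolpp, -0.58 to 0.97 for Apoltp, -1.86 to 1.37 for PPO2, -1.35 to 2.08 for NimC1 and -0.16 to 3.45 for Hml. In NC2b RNAi they ran from -0.041 to 0.78 for apolpp, -1.04 to 0.51 for Apoltp and -2.83 to 0.41 for Hml. The values of srp between the libraries labelled MSL3 and those of NC2b RNAi ran from -0.13 to 0.15, of SPARC between hsbam polysome and total RNA from -0.74 to 1.72, and of PPO2 between S19b RNAi polysome and total RNA from -0.084 to 0.62. Of the other fold changes under these settings, 633 kept their direction and their side of the threshold, 54 lost a call and 59 gained 1. TMM-scaled CPM were 0.868 to 1.32 times the CPM. A library left out of a pair leaves its partner, which was assumed to vary like the other groups. In hsbam polysome library 2, with 2780781 reads, Apoltp had 1 read, PPO2 3 and NimC1 4, so fold changes of these genes against it are limited by counting error.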
